A study of Mus musculus with 8 samples.

Results

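Interferon-stimulated genes (ISGs) are the genes that a cell switches on when it senses interferon. A set of 34 of them was followed in cells that the study sorted as long-term hematopoietic stem cells (LT-HSCs). LT-HSCs are the rare bone marrow cells that renew blood for life. Ifi44 and Ifi44l head the set: they were chosen by their counts, which were much higher in asrij knockout (KO) than in floxed libraries. The other 32 are well-known ISGs listed by symbol. All 34 were found among the 54749 genes of the files, and all 34 were among the 21902 genes that had enough counts to be tested.

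The RNA came from cells sorted as LT-HSCs from the bone marrow of 8 mice aged 6 months, in a study that used both sexes. The 4 control mice (replicates 1, 3, 4 and 5) were homozygous asrij floxed, so their asrij gene is marked for deletion but intact. The 4 KO mice (replicates 2, 3, 4 and 5) lacked asrij in the whole body, so the bone marrow and other tissues around the LT-HSCs lacked it too. The study's methods describe the sorted cells as lineage-negative, c-Kit-positive, Sca1-positive, CD150-positive and CD48-positive, and each library came from its own mouse. For other assays the same methods give LT-HSCs as CD48-negative, so the CD48 gate of these libraries is uncertain. Whether the sorted cells were mainly LT-HSCs is uncertain too. The question was whether the other ISGs follow Ifi44 and Ifi44l across the 8 libraries.

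Interferons are secreted proteins that bind receptors on the cell surface. The receptors activate the JAK kinases, which phosphorylate STAT proteins, and these join IRF9 in a complex that binds the interferon-stimulated response element (ISRE) in promoters. The products of these genes block viruses at many steps, sense foreign RNA and DNA, attach the small protein ISG15 to other proteins, and feed back on the pathway. In the bone marrow, interferon is known to drive dormant HSCs into the cell cycle, and HSCs are known to express a part of these genes without infection.

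The sequence just upstream of a gene shows whether it carries the letters of an ISRE, so the promoters of the members on which the results turn are printed here. These are the 250 bases before the RefSeq start (GRCm38.p6), read 5′ to 3′ on the strand of the gene. Capitals mark the IRF core AANNGAAA and the ISRE core, which is GAAA, then any 2 bases, then GAAA, on either strand. Every ISRE core also holds an IRF core. The windows of Ifi44 (chr3:151749911-151750160, minus strand), Ifi44l (chr3:151762892-151763141, minus strand), Isg15 (chr4:156200819-156201068, minus strand) and Ifi35 (chr11:101448162-101448411, plus strand) follow. The last bases of the Ifi44 window lie inside the span that was counted for Ifi44.
Ifi44: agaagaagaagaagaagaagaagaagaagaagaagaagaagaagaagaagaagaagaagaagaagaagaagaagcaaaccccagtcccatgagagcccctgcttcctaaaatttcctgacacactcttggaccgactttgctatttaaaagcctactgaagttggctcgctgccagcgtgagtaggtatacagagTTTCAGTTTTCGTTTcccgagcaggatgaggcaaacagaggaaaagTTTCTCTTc
Ifi44l: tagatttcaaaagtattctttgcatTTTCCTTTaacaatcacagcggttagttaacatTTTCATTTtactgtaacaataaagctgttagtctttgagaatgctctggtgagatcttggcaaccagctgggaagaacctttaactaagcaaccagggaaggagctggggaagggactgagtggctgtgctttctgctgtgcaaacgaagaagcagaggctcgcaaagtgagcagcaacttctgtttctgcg
Isg15: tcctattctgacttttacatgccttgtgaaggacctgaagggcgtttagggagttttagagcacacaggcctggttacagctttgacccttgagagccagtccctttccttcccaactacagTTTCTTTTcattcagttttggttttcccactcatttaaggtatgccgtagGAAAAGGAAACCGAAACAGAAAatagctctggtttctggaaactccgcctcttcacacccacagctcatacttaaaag
Ifi35: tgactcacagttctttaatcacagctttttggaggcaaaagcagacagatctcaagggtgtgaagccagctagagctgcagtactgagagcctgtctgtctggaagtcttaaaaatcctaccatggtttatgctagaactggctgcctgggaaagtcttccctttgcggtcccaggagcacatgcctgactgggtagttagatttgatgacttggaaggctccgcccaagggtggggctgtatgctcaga

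Isg15 held 3 overlapping ISRE cores in a single run, which end 68, 62 and 56 bases before the start. Ifi44 held no ISRE core and 3 IRF cores, all on the opposite strand, 47, 40 and 1 bases before the start. Ifi44l held no ISRE core and 2 IRF cores, on the opposite strand and farther out, at 217 and 184 bases. Ifi35 held neither. A promoter was found for 24 of the 34 members, and 9 of the 24 (37.5%) held an ISRE core, against 3.46% of the 27025 genes with a promoter and 2.98% of the 32851 promoters. The IRF core was in 14 of the 24 (58.3%), against 23.9% of genes and 21.3% of promoters. The 9 genes with an ISRE core were Bst2, Cxcl10, Ifit1, Ifit3, Isg15, Oas1a, Oas3, Rsad2 and Stat2. A match describes letters only and is not a measured binding site.

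The libraries held between 23412829 and 44874882 gene counts. The targeted gene, Ociad1 (asrij), was lower in every KO library than in every floxed library. It had 11.7 to 19.7 CPM in KO and 31.4 to 66.9 CPM in floxed, so it goes with the labels. CPM is the count as a share of the library, whose size was scaled by TMM. The KO mean of Ociad1 was 0.335 of the floxed mean, and the source of the remaining counts was not tested. Its span overlaps another gene, so its count is uncertain. In edgeR it passed with all libraries (adjusted p = 0.0249) and in 4 of the 8 fits that leave 1 out. Floxed replicate 3 stood apart from the other floxed libraries. The summed level of 9 erythroid marker genes was 5772 CPM there against 1922 to 2019 CPM in the other 3, and 5333 to 5878 CPM in the KO libraries. The 10 neutrophil markers went the other way, with 15867 CPM in floxed replicate 3, 43234 to 49305 CPM in the other floxed libraries and 23655 to 30060 CPM in KO. Markers of the sort and of stem cells (10 genes, Kit and Slamf1 among them) were all detected, at 123 to 149 CPM in sum. Per kilobase of transcript, their sum (66.5 to 91.8 CPM per kb) lay far under that of the neutrophil markers (21736 to 60325 CPM per kb). In bulk RNA such as this, fewer cells of a type and less RNA per cell cannot be told apart. The share of LT-HSCs in these libraries is therefore not known. Libraries numbered 1 to 3 also differ from those numbered 4 and 5, and no label says why.

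Of the 34 ISGs, 3 were differentially expressed by the study's limits (log2 fold change above 1.5 or below -1.5, with adjusted p < 0.05): Ifi44l, Ifi44 and Isg15, all higher in KO. Across all tested genes, 261 passed these limits (1.19%), 0.452% as higher and 0.74% as lower. The first pair chose the set and cannot count as support. With the adjusted p-value alone, 5 members passed, all higher, with Ifi27 and Ifi35 added. The share over all tested genes was 2.97%, and 1.22% for higher genes. No member passed as lower in edgeR's fit on genotype alone, where 1.75% of all tested genes did. At an unadjusted p under 0.05 there were 10 higher and 5 lower members, where 9.63% and 12.1% of all tested genes were. DESeq2 passed 7 members (11.2% of all tested genes) and limma-voom 5 (2.21%), none of them lower. The fold change was above 0 for 18 members and below 0 for 16, with a median log2 fold change of 0.01 against -0.0058 for all tested genes, of which 49.6% were above 0. Among the 32 members other than Ifi44 and Ifi44l, 16 were above 0 and 16 below.

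**Figure D1:**
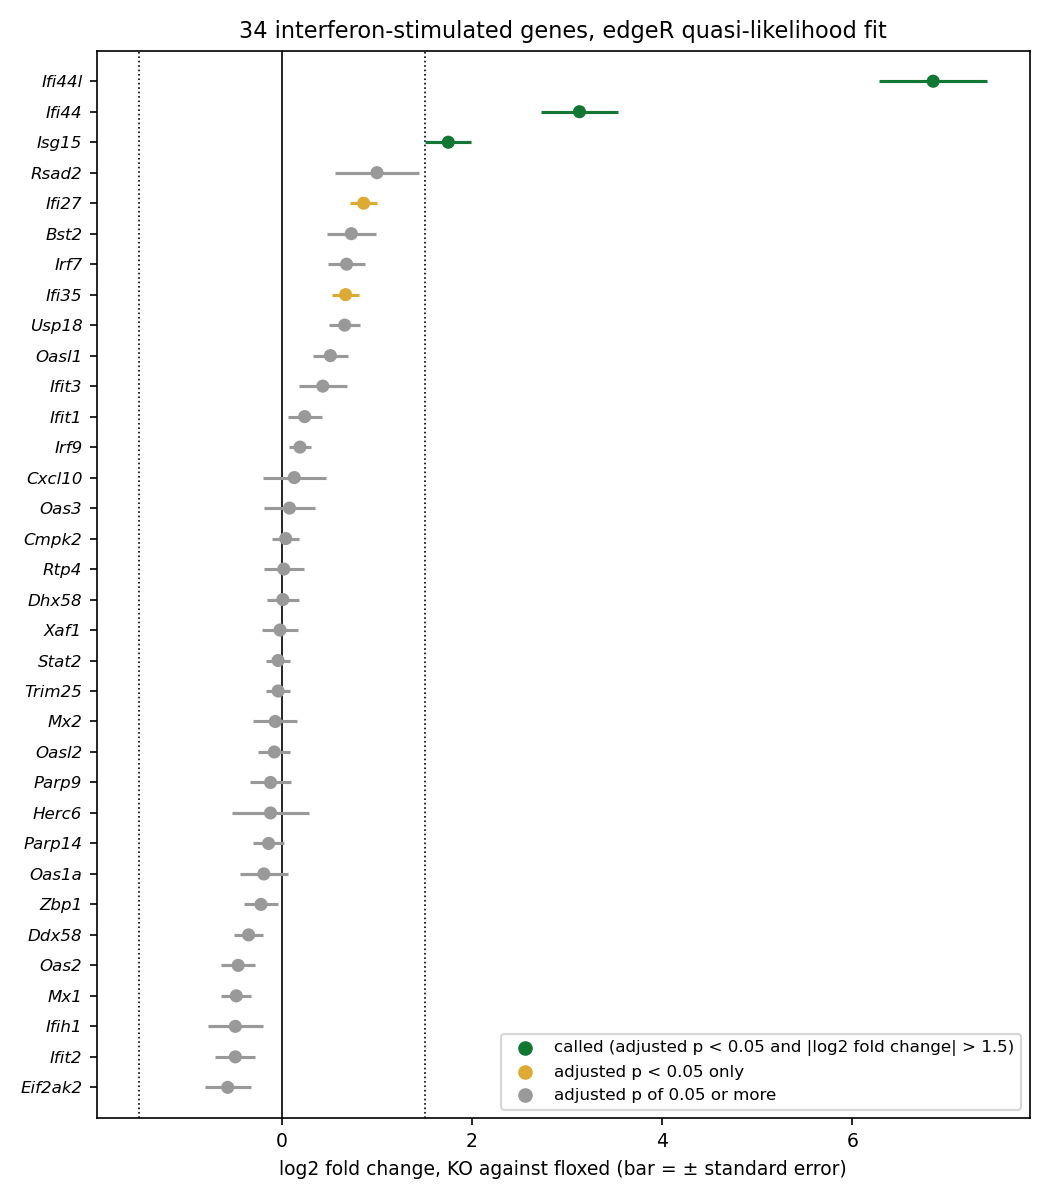
The 34 ISGs ordered by log2 fold change of KO against floxed (x axis), with a bar of 1 standard error on each side. Dotted lines stand at -1.5 and 1.5. Ifi44l, Ifi44 and Isg15 lie right of the limit, Ifi27 and Ifi35 pass the adjusted p-value alone, and the remaining 29 genes spread from -0.57 to 1.0.

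Ifi44 and Ifi44l encode related interferon-induced proteins that are known to restrain virus growth and, for IFI44L, to dampen the interferon response itself. They are neighbours on chromosome 3 (GRCm38), both on the minus strand, Ifi44 from 151730922 to 151749960 and Ifi44l from 151758737 to 151762892, with 8776 bases between them. Both were chosen for their change, so their values are a description. Ifi44l had 4, 3, 4 and 16 counts in floxed replicates 1, 3, 4 and 5. It had 1051, 928, 636 and 704 counts in KO replicates 2, 3, 4 and 5. Near-silence in all 4 floxed libraries thus stood against steady expression in all 4 KO libraries. The mean was 0.236 ± 0.255 CPM in floxed and 24.8 ± 1.87 CPM in KO (SD, n = 4 each). On the log2 scale the fitted difference was 6.85 (standard error 0.57). The SD in KO was small beside the mean, so the 4 KO mice had nearly the same level.

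Ifi44 was detected in every library, at a low level in the floxed ones. It had 0.66, 2.53, 3.23 and 2.30 CPM in floxed replicates 1, 3, 4 and 5. The KO replicates 2, 3, 4 and 5 had 18.3, 23.5, 16.7 and 17.5 CPM. The lowest KO library was thus above the highest floxed library by far more than the spread within either genotype. Its fitted log2 difference was 3.13 (standard error 0.41). Over the 18 alternative fits the log2 difference ran from 6.44 to 7.91 for Ifi44l and from 2.84 to 3.37 for Ifi44. These fits reuse the counts that chose the pair, so the ranges are a description and lend no support. In floxed replicate 3, the library rich in erythroid markers, Ifi44l had 3 counts and Ifi44 2.53 CPM, both within the range of the other floxed libraries or below it.

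All 4 annotated transcripts of Ifi44 were higher in KO. Their spans lie inside one another and can hold the same reads, and Ifi44 was chosen by its counts. The 4 are therefore a description and lend no separate support. The longest span had 25 to 134 counts in floxed and 470 to 902 in KO libraries, and the shortest 2 to 23 and 40 to 124. Ifi44l and Isg15 have 1 annotated transcript each. No 50-base stretch of the spliced Ifi44 or Ifi44l transcript occurs in a transcript of another gene, and neither span overlaps another gene. The introns, which counts over whole spans would include, were not compared.

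The genes around this pair were also compared. Within 1 Mb of Ifi44l lie 36 genes, of which 18 were tested, and Ifi44 and Ifi44l were the only pair called. Of the other 16, 0 passed in edgeR's test, 0 had an unadjusted p under 0.05, and 0 passed in DESeq2 or limma-voom. Their log2 fold changes ran from -0.34 to 1.03. Over all tested genes, 2.97% passed in edgeR, 2.21% in limma-voom and 11.2% in DESeq2. At an unadjusted p under 0.05, 9.63% were higher and 12.1% lower. For 16 genes, 0 passing in edgeR or limma-voom is near these shares. The nearest tested gene beyond the pair was Ptgfr, a prostaglandin receptor gene 33.6 kb away, whose log2 fold change was 1.03 (standard error 0.62, adjusted p = 0.367). On the other side the nearest was Adgrl4, with 0.06 (standard error 0.24, adjusted p = 0.915).

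**Figure D2:**
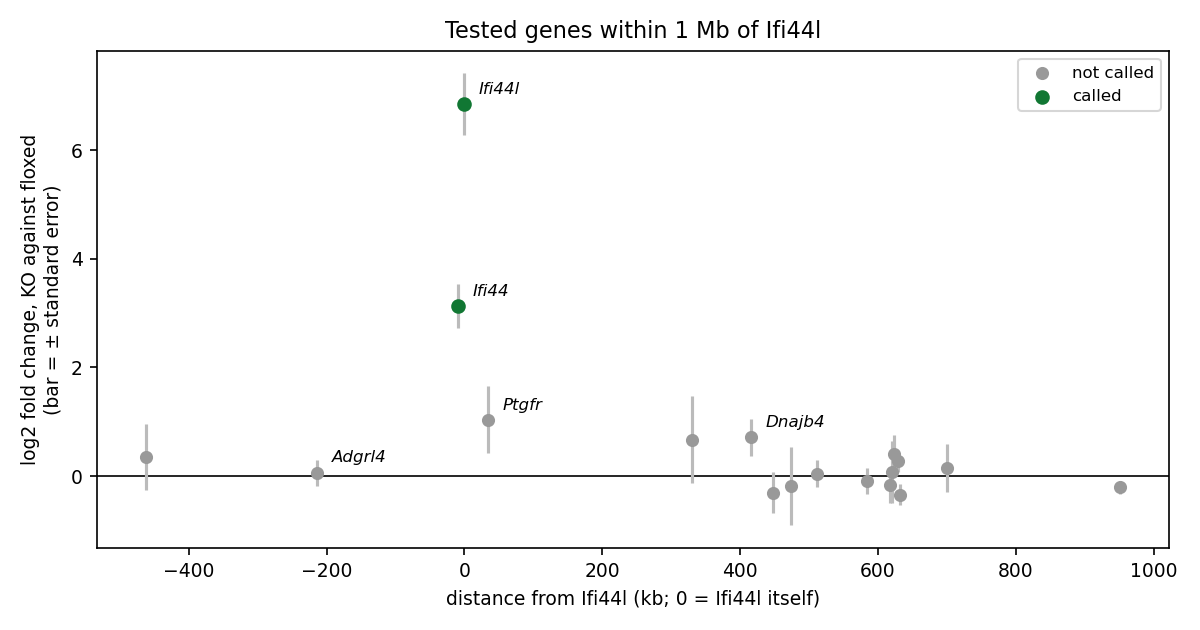
Log2 fold change of KO against floxed (y axis, bar of 1 standard error on each side) for the 18 tested genes within 1 Mb of Ifi44l, by distance in kb (x axis). Ifi44l and Ifi44 stand at 6.85 and 3.13, and the other 16 genes lie between -0.34 and 1.03.

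The member closest to this pattern was Isg15. It encodes a ubiquitin-like protein that is attached to other proteins during the interferon response, and lies on chromosome 4 (156199424 to 156200818, minus strand). Its level was 16.1, 35.95, 24.2 and 23.7 CPM in floxed replicates 1, 3, 4 and 5. In KO replicates 2, 3, 4 and 5 it was 88.6, 70.1, 95.4 and 82.3 CPM. The genotypes did not overlap, and unlike Ifi44l the gene was well expressed in floxed cells. The log2 fold change was 1.75 (standard error 0.24, adjusted p = 0.0113). Isg15 stayed differentially expressed in 17 of 18 alternatives, and the exception was the replicate block on the 3 pairs numbered 3, 4 and 5 (1.59, adjusted p = 0.0750). Its floxed maximum was in floxed replicate 3, where the erythroid markers were also highest, and their part in the result was not tested. Without that library the log2 fold change was 1.99 (adjusted p = 0.000529).

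**Figure D3:**
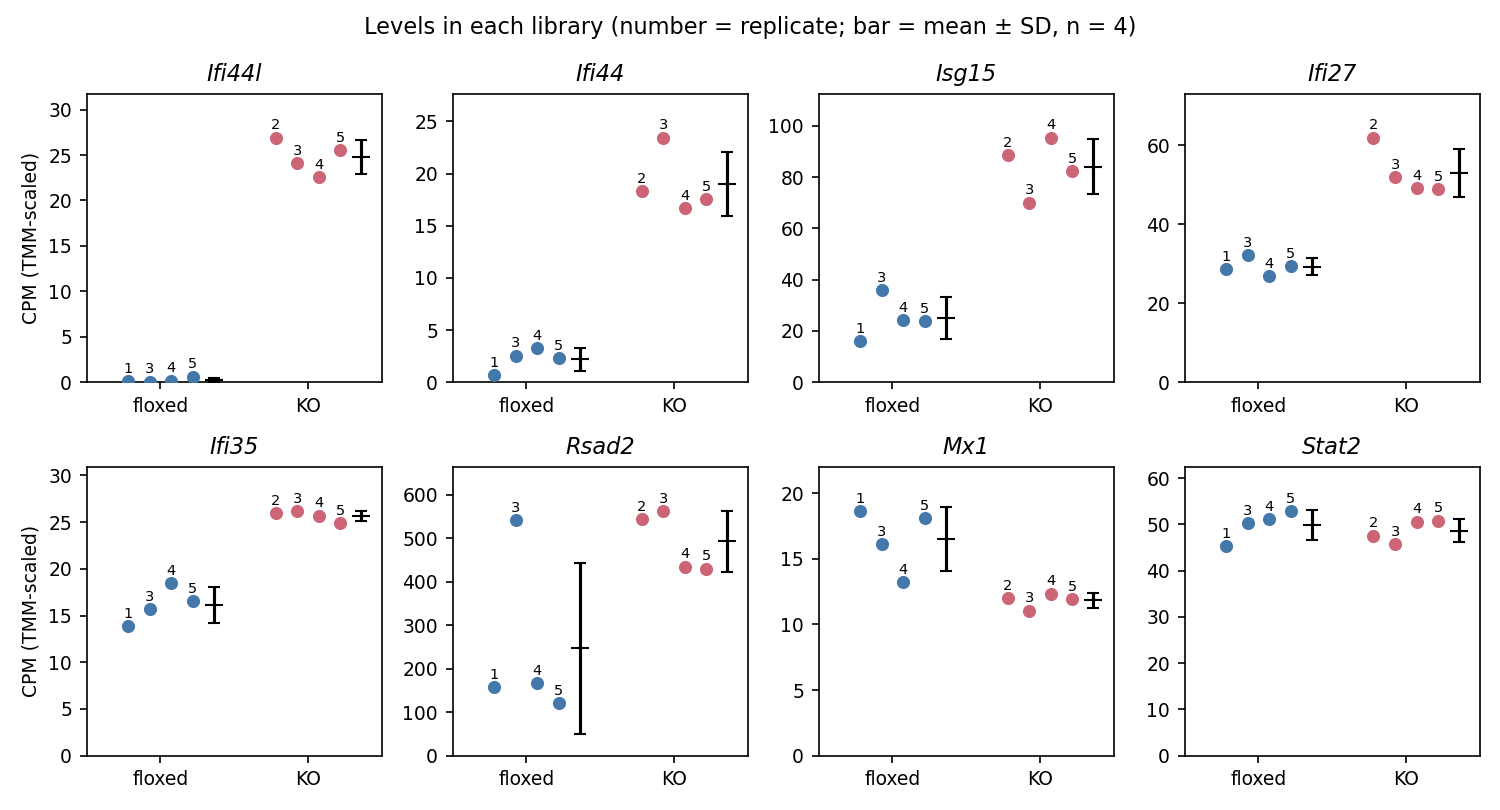
Level in CPM (TMM-scaled, y axis from 0) of 8 ISGs in each library, with the replicate number at each point and a bar for the mean ± SD (n = 4). Ifi44l, Ifi44, Isg15, Ifi27 and Ifi35 do not overlap between genotypes, floxed replicate 3 of Rsad2 lies among the KO libraries, Mx1 is lower in every KO library and Stat2 overlaps.

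ISG15 is attached by a chain of enzymes, and the genes of this chain were looked at together after their values had been seen. Uba7 encodes the activating enzyme, Ube2l6 the conjugating enzyme, Herc6 the mouse ligase, and Usp18 the protease that removes ISG15 and also shuts down the type I receptor. Ube2l6 had 173, 338, 219 and 200.2 CPM in the floxed libraries. It had 655, 598, 784 and 717 CPM in the KO libraries, all higher. Its log2 fold change was 1.57 (standard error 0.24, adjusted p = 0.0184), or 1.52 with adjusted p = 0.118 under the replicate block. Ube2l6 passed in 12 of 18 alternatives, and in 3 of the 8 that leave out a library. Uba7 also passed the test (0.73, standard error 0.16, adjusted p = 0.0441, and 0.71 with adjusted p = 0.173 under the block), although its span overlaps another gene. It passed in 8 of 17 alternatives, and in 1 of the 8 that leave out a library.

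Usp18 had 12.4, 14.8, 12.2 and 10.3 CPM in floxed replicates 1, 3, 4 and 5. It had 21.2, 21.2, 18.6 and 17.5 CPM in KO replicates 2, 3, 4 and 5. The genotypes did not overlap, but the gene did not pass the test (0.66, standard error 0.16, adjusted p = 0.0602). It passed in 4 of 17 alternatives, and 62.8% of its span is shared with Gm44148, whose total was 81.1% of that of Usp18. The log2 fold change of Herc6 was -0.12 (standard error 0.40, adjusted p = 0.897). Its highest library was floxed replicate 3, at 42.4 CPM against 11.7 to 25.1 CPM in the other 7, and without it the log2 fold change turned to 0.44 (adjusted p = 0.321). The span of Herc6 shares 53.8% with Gm45193.

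Ifi27 and Ifi35 were the other pair that passed the test. Ifi27, whose product sits in membranes of mitochondria and the nucleus, had 28.6, 32.2, 26.9 and 29.4 CPM in floxed replicates 1, 3, 4 and 5. The KO replicates 2, 3, 4 and 5 had 62.0, 51.9, 49.1 and 49.0 CPM. All KO libraries were above all floxed ones, and both groups were tight. For Ifi27 the log2 fold change was 0.86 (standard error 0.14, adjusted p = 0.0233). Under the replicate block it was 0.78 (adjusted p = 0.122). Ifi27 passed in 10 of 18 alternatives, though in 1 of the 8 that leave out a library.

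Ifi35 encodes a protein that binds its partner NMI. It had 13.8, 15.7, 18.5 and 16.5 CPM in floxed replicates 1, 3, 4 and 5. In KO replicates 2, 3, 4 and 5 it had 25.9, 26.2, 25.7 and 24.9 CPM. The KO values were almost equal and above every floxed value. For Ifi35 the log2 fold change was 0.67 (standard error 0.14, adjusted p = 0.0416). Under the replicate block it was 0.62 (adjusted p = 0.160), and Ifi35 passed in 8 of 17 alternatives. Of the 8 fits that leave out a library, it passed in 1, the one without floxed replicate 3. A transcript on the opposite strand, Gm11626, overlaps 7.92% of its span and had 16.1% of its total, and the counts cannot separate the pair.

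Rsad2 had the largest fold change among members that did not pass. It encodes viperin, an enzyme that makes a chain-terminating nucleotide against viruses. It had 158, 541, 167 and 121 CPM in floxed replicates 1, 3, 4 and 5. The KO replicates 2, 3, 4 and 5 had 544, 563, 435 and 430.2 CPM. Floxed replicate 3 alone lay among the KO libraries, and the other 3 floxed libraries lay well below them. With all libraries the log2 fold change was 1.0 (standard error 0.44, adjusted p = 0.224). Without floxed replicate 3 it was 1.74 (adjusted p = 0.000646), past both limits. The erythroid marker sum moved with it (5772 CPM in floxed replicate 3 against 1922 to 2019 CPM), and its part in the result was not tested. Cmpk2, the adjacent gene on chromosome 12, thought to supply the nucleotide that viperin uses, had 87.6 to 113 CPM in floxed and 100.2 to 111 CPM in KO libraries (0.04, standard error 0.14, adjusted p = 0.892).

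Among the transcription factors, Irf7, the amplifier of type I interferon production, had 35.3, 39.4, 47.6 and 55.1 CPM in floxed replicates 1, 3, 4 and 5. It had 65.5, 56.0, 84.4 and 78.1 CPM in KO replicates 2, 3, 4 and 5. The groups did not overlap, and the log2 fold change was 0.68 (standard error 0.19, adjusted p = 0.0809). Irf7 passed in 2 of 17 alternatives, DESeq2 and the block for numbers 4 and 5. Irf9, the DNA-binding part of the STAT complex, had 67.2, 69.5, 75.1 and 71.7 CPM in floxed replicates 1, 3, 4 and 5. KO replicates 2, 3, 4 and 5 had 78.6, 81.9, 82.6 and 80.6 CPM (0.19, standard error 0.12, adjusted p = 0.395). Its KO libraries were all above the floxed ones, with a small distance. Stat2, its partner, averaged 49.9 ± 3.25 CPM in floxed libraries and 48.7 ± 2.44 CPM in KO (SD, n = 4 each). Its log2 fold change was -0.04 (standard error 0.13, adjusted p = 0.900).

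The antiviral effectors had fold changes on both sides of 0. The OAS family makes the messenger that activates RNase L, and its inactive relative Oasl1 is known to restrain Irf7. Oasl1 had 9.04, 11.5, 12.8 and 14.0 CPM in floxed replicates 1, 3, 4 and 5. It had 15.9, 14.98, 18.9 and 17.6 CPM in KO replicates 2, 3, 4 and 5. These did not overlap, but the test was not passed (0.51, standard error 0.18, adjusted p = 0.142). Oas2 had -0.46 (standard error 0.18, adjusted p = 0.187), Oas1a -0.19, Oasl2 -0.08 and Oas3 0.08. Oas1a shares 57.6% of its 50-base stretches with Oas1g, so its count is uncertain.

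In the IFIT family, whose proteins bind foreign RNA ends, Ifit3 had a log2 fold change of 0.43, Ifit1 of 0.24 and Ifit2 of -0.49 (standard error 0.21, adjusted p = 0.222), although they lie side by side on chromosome 19. None of these passed in edgeR's fit on genotype alone, and Ifit2 passed with the block for numbers 4 and 5. Ifit2 had 31.5, 26.8, 19.98 and 18.8 CPM in floxed replicates 1, 3, 4 and 5, and the groups overlapped, with 17.6, 21.8, 15.1 and 14.9 CPM in KO replicates 2, 3, 4 and 5. Ifit3 shares 51.2% of its stretches with Ifit3b. Mx1 was the single member lower in every KO library. It had 18.6, 16.1, 13.2 and 18.1 CPM in floxed replicates 1, 3, 4 and 5. The KO replicates 2, 3, 4 and 5 had 12.0, 11.1, 12.4 and 11.9 CPM. The KO values lay close together, just under the lowest floxed library, and the fitted log2 difference was -0.48 (standard error 0.16, adjusted p = 0.122). Mx2 was at -0.07. Bst2, or tetherin, which holds budding viruses to the cell, had 13.9 to 28.8 CPM in floxed and 24.7 to 41.3 CPM in KO, with overlap (0.73, standard error 0.26, adjusted p = 0.147).

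Of the RNA sensors in the set, Eif2ak2, Ifih1 and Ddx58 had fold changes below 0 and did not pass edgeR's fit on genotype alone. Eif2ak2 and Ifih1 passed with the block for numbers 4 and 5, and Ddx58 passed without floxed replicate 3. Eif2ak2, which encodes the kinase PKR, had the lowest fold change of all members. It had 53.9, 71.8, 40.7 and 36.5 CPM in floxed replicates 1, 3, 4 and 5. The KO replicates 2, 3, 4 and 5 had 38.1, 41.7, 28.8 and 28.01 CPM. The groups overlapped, and the log2 fold change was -0.57 (standard error 0.24, adjusted p = 0.202). Ifih1 (MDA5) followed with -0.49 (standard error 0.29, adjusted p = 0.359). It had 33.5, 40.2, 18.6 and 19.97 CPM in floxed replicates 1, 3, 4 and 5. Values of 23.4, 25.2, 16.0 and 15.5 CPM in KO replicates 2, 3, 4 and 5 overlapped these. Ddx58 (RIG-I) had -0.35 (standard error 0.15, adjusted p = 0.222). Dhx58 (LGP2), the remaining receptor of this family, was at 0.01, and Zbp1, a sensor of Z-form nucleic acids, at -0.22. The ligase Trim25 was at -0.04, Parp9 at -0.12, Parp14 at -0.14, Xaf1 at -0.02, Rtp4 at 0.02 and the chemokine Cxcl10 at 0.13, and none of these passed. The counted span of Cxcl10 lies wholly within that of Art3, whose total was 130% of that of Cxcl10. Dhx58 shares 28.1% of its span with Dhx58os (51.1% of its total), and Parp9 shares 17.1% with Gm15564 (78.3%). The counts of these 3 members are therefore uncertain.

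Libraries of the genotypes did not overlap for 10 of the 34 members, against 14.8% of all tested genes. For 9 of them every KO library was above every floxed one (7.1% of all tested genes): Ifi44, Ifi44l, Isg15, Ifi27, Ifi35, Irf7, Usp18, Oasl1 and Irf9. Mx1 was the one with every KO library below (7.66%). Among the 32 members other than Ifi44 and Ifi44l, which chose the set, 7 lay above and 1 below. The 31 members other than Ifi44, Ifi44l and Isg15 were also looked at as a group. Their median deviation from the mean of the 8 libraries, on the log2(CPM + 1) scale, was -0.03, -0.23, -0.01 and 0.06 in floxed replicates 1, 3, 4 and 5, and 0.03, 0.03, 0.06 and 0.05 in KO replicates 2, 3, 4 and 5. Floxed replicate 3 was the library farthest from 0. It was the highest floxed library for 10 of the 34 members and the lowest for 15, against 37.7% and 32.5% of all tested genes.

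**Figure D4:**
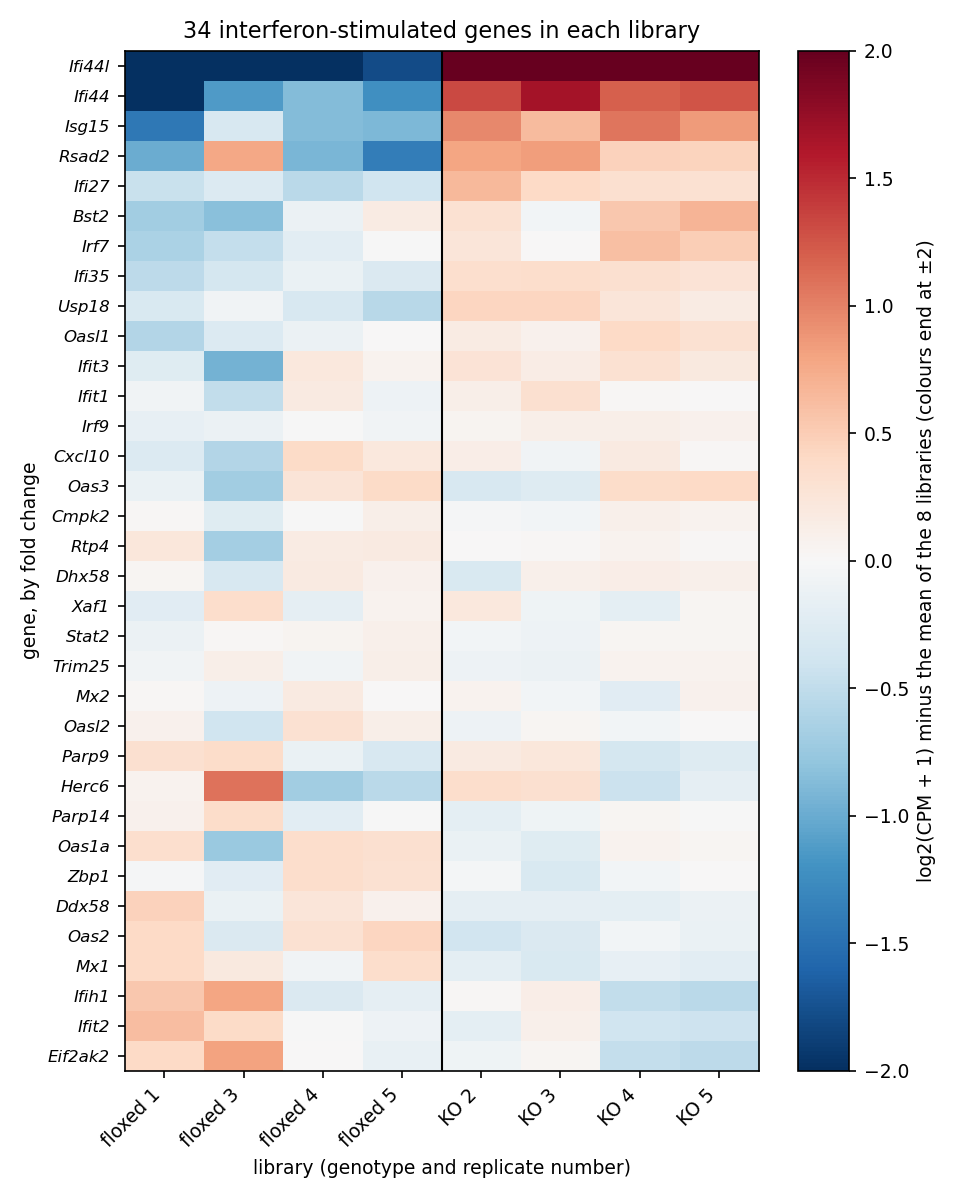
Each of the 34 ISGs (rows, ordered by fold change) in each of the 8 libraries (columns, floxed left and KO right of the line). Colour gives log2(CPM + 1) minus the mean of the gene over the 8 libraries, red above and blue below, with colours ending at -2 and 2. The top rows change colour at the line, the middle rows stay pale, and floxed replicate 3 differs from the other floxed libraries in both directions.

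Because libraries numbered 1 to 3 differ from those numbered 4 and 5, each difference was also taken inside the groups of numbers. KO minus floxed, on the log2(CPM + 1) scale, was 4.62 in numbers 1 to 3 and 4.19 in numbers 4 and 5 for Ifi44l, 3.17 and 2.28 for Ifi44, and 1.67 and 1.84 for Isg15. It was 0.88 and 0.78 for Ifi27, 0.78 and 0.51 for Ifi35, and 0.92 and 1.60 for Rsad2. These 6 genes were higher in KO within both groups of numbers, and Irf7, Usp18 and Bst2 were also higher by more than 0.5 in both. Ifi44 and Ifi44l were chosen for this difference, so their values here lend no support. In the other direction, Ifit2, Mx1, Oas2, Ddx58 and Eif2ak2 were lower by more than 0.3 in both. The limits of 0.5 and 0.3 differ, so the higher and lower genes cannot be compared by number. The shares of all tested genes past these limits were not taken, so both lists are a description. The sign was the same in both groups for 23 of the 34 members, against 68.2% of all tested genes. Between the groups of numbers themselves, Ifih1, Herc6, Parp9 and Eif2ak2 were lower by more than 0.4 in numbers 4 and 5 in both genotypes, and Oas3, Irf7 and Bst2 were higher by more than 0.4. The share of all tested genes past 0.4 was not taken either. For Oas3 this distance (0.73 in floxed, 0.67 in KO) was larger than its difference between genotypes (0.12 and 0.06).

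With the block for numbers 4 and 5, 13 members passed the adjusted p-value, 9 higher and 4 lower, where 18.5% of all tested genes passed. Bst2 (0.77, adjusted p = 0.00799), Irf7 (0.68, adjusted p = 0.00576), Usp18 (0.66, adjusted p = 0.00799) and Oasl1 (0.51, adjusted p = 0.0213) were then added to the higher genes. Eif2ak2 (-0.55, adjusted p = 0.0164), Ifit2 (-0.47, adjusted p = 0.0276), Ifih1 (-0.45, adjusted p = 0.0293) and Mx1 (-0.48, adjusted p = 0.0395) were the lower ones. Without floxed replicate 3, 9 members passed (17.5% of all tested genes), and Rsad2 (1.74) and Usp18 (0.77, adjusted p = 0.00892) rose while Oas2 (-0.59, adjusted p = 0.0112) and Ddx58 (-0.43, adjusted p = 0.0396) fell. With the replicate block, Ifi44 (2.86) and Ifi44l (6.72) were the 2 members that passed, where 0.222% of all tested genes passed. They chose the set, so this count says nothing about the other members. Of the other 32, 0 passed edgeR's test under this block, which is near the share of 0.222% over all tested genes.

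The rest of the pathway was counted from lists of its parts, which were drawn up with earlier results known. Over all tested genes, 1.22% passed edgeR's test as higher and 1.75% as lower, while DESeq2 passed 11.2% and limma-voom 2.21%. At an unadjusted p under 0.05, 9.63% were higher and 12.1% lower. For lists of this size, 0 or 1 passing gene in edgeR is near these shares. Of the 21 interferon genes listed, 16, Ifnb1 and most Ifna genes among them, had no count in any library. The highest count of any ligand was 27, for Ifng in KO replicate 2, and 4 other ligands had at most 7 counts. None had enough counts to be tested, so ligand RNA was at or near the limit of detection in both genotypes.

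Of the 19 receptor and signalling genes, 0 passed edgeR's test in either direction, against 2.97% of all tested genes. At an unadjusted p under 0.05, where 12.1% of all tested genes were lower, there were 5 of the 19, all lower. DESeq2, which passed 11.2% of all tested genes, passed 3 of them as lower (Ifngr1, Ifnlr1 and Jak1), and limma-voom 0. The fold change was below 0 for 15 of the 19, with a median of -0.20. Jak1, the kinase shared by all interferon receptors, had 193 to 262 CPM in floxed and 124 to 155 CPM in KO, with no overlap (-0.62, standard error 0.17, adjusted p = 0.0728). Ifnlr1 (-0.65, adjusted p = 0.0844), Ifngr1 (-0.64, adjusted p = 0.100) and Tyk2 (-0.42, adjusted p = 0.123), which encode the lambda receptor, the gamma receptor and the second kinase of the type I receptor, came next by p-value. Without floxed replicate 3 these 4 had adjusted p-values of 0.0219, 0.00190, 0.00193 and 0.0292, at -0.64, -0.79, -0.79 and -0.47. They were picked by their small p-values, and leaving out that library raised the share of all tested genes that passed from 2.97% to 17.5%.

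In the list of 19 genes for sensing of nucleic acids, 1 passed in edgeR and limma-voom and was differentially expressed in edgeR. Tlr8, an endosomal Toll-like receptor of the group that senses RNA, had 33.3, 18.1, 16.8 and 21.1 CPM in floxed replicates 1, 3, 4 and 5. It had 5.43, 6.45, 6.49 and 6.81 CPM in KO replicates 2, 3, 4 and 5. Every KO library was thus well below every floxed one. The log2 fold change was -1.83 (standard error 0.24, adjusted p = 0.00907). Under the replicate block it was -1.48 (adjusted p = 0.0453), which passes the test and falls just short of the fold limit. Ikbke (-0.65), Cgas (-0.55) and Traf3 (-0.44) were next by p-value and did not pass in edgeR (adjusted p = 0.0808, 0.0824 and 0.134). DESeq2 passed Tlr8, Ikbke and Cgas, all lower. The monocyte markers, from cells in which Tlr8 is known to be expressed, summed to 1608 to 1767 CPM in 3 floxed libraries, 652 CPM in floxed replicate 3 and 1008 to 1109 CPM in KO. Of these 10 markers, 4 had fold changes above 0 and 6 below, 1 passed edgeR's test (C1qa, higher at 1.26), and none was at 0 in every library. Their part in the Tlr8 result was not tested.

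In the p200 family, which holds DNA sensors, 0 of 12 tested genes passed in edgeR or limma-voom (median -0.23), 2 had an unadjusted p under 0.05, both lower, and DESeq2 passed 1, Ifi207. Those with the smallest p-values were Ifi207 (-0.49, adjusted p = 0.0972), Ifi203 (-0.42, adjusted p = 0.221), Ifi209 (-0.38, adjusted p = 0.266) and Ifi208 (0.64, adjusted p = 0.319). Of the 7 Ifitm genes, which block virus entry, 0 passed in edgeR, DESeq2 or limma-voom, and 0 had an unadjusted p under 0.05 (median -0.31). The 4 with the smallest p-values were Ifitm5 (1.26, adjusted p = 0.242, at most 33 counts), Ifitm1 (-0.57, 0.374), Ifitm6 (-0.54, 0.426) and Ifitm10 (-0.43, 0.448).

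Of 17 tested interferon-induced GTPases, Gbp7 passed as lower, as did 1.75% of all tested genes. It had 31.0, 52.5, 21.2 and 17.7 CPM in floxed replicates 1, 3, 4 and 5. The KO replicates 2, 3, 4 and 5 had 12.3, 12.95, 7.70 and 7.17 CPM. All KO libraries were lower, and the log2 fold change was -1.61 (standard error 0.36, adjusted p = 0.0472). Under the replicate block it was -1.58 (adjusted p = 0.0513). It passed in 8 of 17 alternatives and its span overlaps another gene. Of the 8 fits that leave out a library, it passed in 1, without floxed replicate 3, and was past both limits in 0. Gbp2 (-0.81, adjusted p = 0.0565) and Gbp5 (-1.03, adjusted p = 0.0862) did not pass in edgeR. DESeq2 passed Gbp2, Gbp5 and Gbp7 as lower and Igtp as higher, and limma-voom passed 0 of the 17. Igtp, of the immunity-related GTPases, went the other way (1.15, adjusted p = 0.101), with 21.97 to 30.4 CPM in 3 floxed libraries, 75.4 CPM in floxed replicate 3 and 77.6 to 95.3 CPM in KO.

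Among 51 tested further ISGs, 2 passed in edgeR as higher (1.22% of all tested genes), Ube2l6 and Uba7 above, and 2 as lower (1.75%). The median was -0.09. DESeq2 passed 5 as higher and 7 as lower, and limma-voom 2 as higher (Ube2l6 and Isg20) and 1 as lower (Samd9l). Samd9l, a growth-restraining gene of hematopoietic cells, had 244, 151, 151 and 158 CPM in floxed replicates 1, 3, 4 and 5. It had 87.6, 108, 66.8 and 75.2 CPM in KO replicates 2, 3, 4 and 5. The highest KO library was below the lowest floxed one. The log2 fold change was -1.06 (standard error 0.22, adjusted p = 0.0389). Under the replicate block it was -0.89 (adjusted p = 0.150), and Samd9l passed in 10 of 18 alternatives. Of the 8 fits that leave out a library, Samd9l passed in 1, the one without floxed replicate 3. Dtx3l, the partner of Parp9, was also lower (-0.65, standard error 0.14, adjusted p = 0.0458, and -0.59 with adjusted p = 0.156 under the block), and its span overlaps that of Parp9. It passed in 7 of 17 alternatives, and in 1 of the 8 that leave out a library, again without floxed replicate 3. Isg20, an RNA exonuclease gene, was at 1.13 (standard error 0.26, adjusted p = 0.0506 in edgeR, but under 0.05 in DESeq2 and limma-voom), with 58.7 to 76.7 CPM in 3 floxed libraries, 135 CPM in floxed replicate 3 and 151 to 210.2 CPM in KO.

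**Figure D5:**
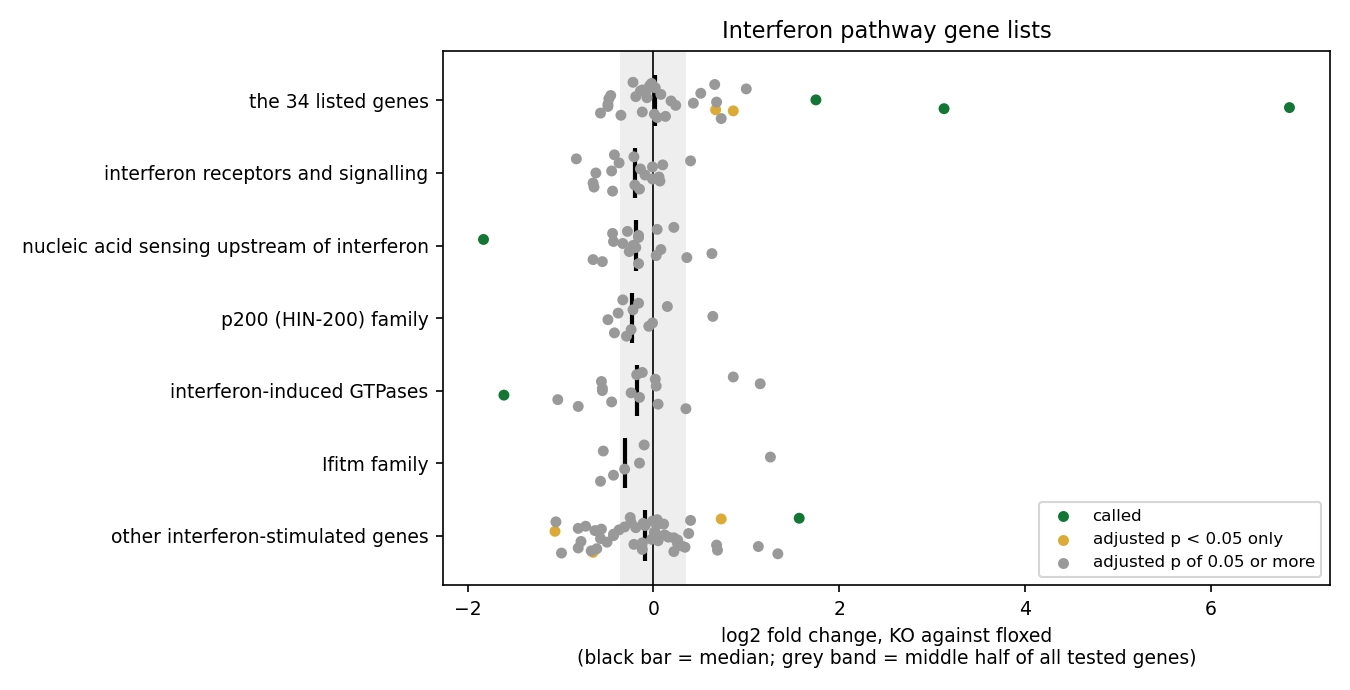
Log2 fold change of KO against floxed (x axis) of each tested gene of the 34 ISGs and of 6 pathway lists (y axis), with a black bar for the median of a list and a grey band from the lower to the upper quartile of all tested genes (-0.354 to 0.339). Most points of each list lie in or near the band, and Ifi44l, Ifi44, Isg15 and Ube2l6 stand to the right, Tlr8 and Gbp7 to the left.

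Markers of other cells differed between the genotypes as well. Over all tested genes, 1.22% passed edgeR's test as higher, and 9.63% were higher at an unadjusted p under 0.05. DESeq2 passed 11.2% of all tested genes and limma-voom 2.21%. Megakaryocyte and platelet markers (10 genes) summed to 75.7 to 143 CPM in floxed and 245 to 294 CPM in KO libraries, with 7 of 10 passing as higher. Plasmacytoid dendritic cell markers (8 genes), from the cells best known for making type I interferon, summed to 335 to 403 CPM in floxed and 420.3 to 466 CPM in KO, and 0 of 8 passed edgeR's test or limma-voom, with 2 at an unadjusted p under 0.05 and 2 passing in DESeq2, all higher. T and NK cell markers (10 genes) summed to 85.9 to 120.4 CPM in floxed and 62.0 to 67.4 CPM in KO. B cell markers (10 genes) were at 343 to 383 CPM in 3 floxed libraries, 693 CPM in floxed replicate 3 and 591 to 631 CPM in KO. No marker of these lists was at 0 in every library. The part of these markers in the results on the ISGs was not tested.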

How the data were processed

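RNA of cells sorted as LT-HSCs was sequenced from 4 asrij floxed and 4 asrij KO mice. Per the study's methods, the authors used FastQC for read quality, Trim Galore for adaptors and Bowtie2 for alignment against GRCm38 (mm10) transcripts, and they deposited raw counts for 138930 Ensembl transcripts in each library, with no normalization. The counting tool, strand setting and versions are not given in the sources used here. Where a transcript with at least 800 counts lay inside an intron of another gene, the outer count was at least as high in every library in 2891 of 2891 pairs on opposite strands and 1514 of 1514 on the same strand, as in counts over whole spans on both strands, so a gene that overlaps another is uncertain.

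In GENCODE M21, 138789 of the transcripts were found, in 54749 genes. Each gene took the count of 1 transcript, the one whose total across all 8 libraries was highest. Genes were filtered with filterByExpr, scaled by TMM and tested with edgeR 4.0.16 (glmQLFit and glmQLFTest, R 4.3.3), with Benjamini-Hochberg adjustment over 21902 genes. Gene totals were 23412829 to 44874882 counts before scaling, and CPM used these totals after TMM scaling, with log2(CPM + 1) where stated.

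The members and all gene lists were chosen with earlier results of these data known. Members with a call, with no overlap, or among the 3 highest or 3 lowest fold changes are given in full, and from each other pathway list the 4 genes with the smallest p-value and any gene that passed. The symbols Mnda, Pyhin1 and Ahsp were not found. Alternatives were RLE size factors, 2 other filters, DESeq2 1.42.0, limma-voom (limma 3.58.1), sums over transcripts, no haemoglobin genes, no overlapping genes, 2 blocks and each library left out. Scripts were tested on simulated data. Replicate numbers come from the library names, and the mice are separate. Deviations from the genotype means correlated in same-numbered libraries (0.427, 0.454 and 0.707 for numbers 3, 4 and 5 over 21902 genes), and so did differently numbered pairs within numbers 1 to 3 or within 4 and 5 (0.359 to 0.711). The numbers were treated as pairs in a replicate block. Promoters are from RefSeq.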

Additional observations from a re-analysis of the deposited data

Results flagged for a closer look

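In 82 groups of 4 libraries (41 genes within each genotype, on the log2(CPM + 1) scale: the 34 members, Ociad1, Ube2l6, Uba7, Samd9l, Dtx3l, Gbp7 and Tlr8), 4 held a library far from the other 3, where chance gives about 4.1 at 1 in 20 (Dixon's test). Oas1a was low in floxed replicate 3, at 4.26 against 5.32 to 5.35 in the other floxed libraries. Rtp4 was low in the same library, at 4.33 against 5.18 to 5.25. Dhx58 was low in KO replicate 2, at 4.28 against 4.68 to 4.71. Samd9l was high in floxed replicate 1, at 7.94 against 7.25 to 7.31.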

How the results depend on the processing

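The number of differentially expressed genes over the whole table (261) moved to 503 with DESeq2, 521 with the block for numbers 4 and 5, 44 with the replicate block and 651 with the adjusted p-value alone, and ran from 51 to 857 with each library left out, the highest without floxed replicate 3. The number of members called was 5 with the adjusted p-value alone and 3 in most other fits, with 2 under the replicate block and 4 without floxed replicate 3. Under the replicate block Isg15, Ifi27 and Ifi35 among the members, and Ube2l6, Uba7, Samd9l, Dtx3l and Gbp7, no longer passed the adjusted p-value, Tlr8 missed the fold limit, and no other call of a member changed. Of all calls, 37.9% were higher, against 60.8% with limma-voom and 59.1% with the replicate block.

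Fold changes near 0 changed sign: under the replicate block Oas1a (0.01) and Oasl2 (0.01), and with no filter Stat2 (0.00042) and Xaf1 (0.02). With each library left out, the range crossed 0 for Mx2 (-0.11 to 0.03), Oas3 (-0.09 to 0.23), Oasl2 (-0.19 to 0.02), Dhx58 (-0.07 to 0.12), Rtp4 (-0.15 to 0.11), Xaf1 (-0.09 to 0.13), Cxcl10 (-0.07 to 0.36), Cmpk2 (-0.01 to 0.10), Herc6 (-0.32 to 0.44), Parp9 (-0.23 to 0.01) and Trim25 (-0.07 to 0.00093). The causes were not tested. Depth limits Ifi44l in floxed libraries (3 to 16 counts) and the interferon ligands.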
